A study of Homo sapiens with 8 samples.

Results

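Mucins and trefoil factors of the gastrointestinal tract were examined in ESO26 cells, a human line grown from an adenocarcinoma of the oesophagus, after knockdown of the transcription factor HNF4A. The 10 genes were chosen by name: MUC1, MUC2, MUC5AC, MUC5B, MUC6, MUC13, MUC20, TFF1, TFF2 and TFF3. Of these, 8 were measured in the table of 30755 gene symbols, and MUC5AC and TFF1 were not analysed here. The comparison is between 2 RNA-seq libraries labelled siHNF4A and 2 labelled control, all from ESO26 cells in RPMI-1640 medium with serum. The siRNA, a short double-stranded RNA, directs cleavage of the matching transcript. The labels give neither the siRNA sequence, nor the time of harvest, nor what the control cells received, and the letter B in the siHNF4A titles is not explained. They do not say that libraries came from separate cultures, so p-values rest on the spread between these libraries, which may be technical. That spread was estimated partly from other genes of similar level, not from each gene alone. As bulk RNA was measured, a change in the number of cells that make a transcript and a change per cell cannot be told apart.

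Mucins are large glycoproteins whose repeats of serine and threonine carry dense O-linked sugars. MUC2, MUC5AC, MUC5B and MUC6 are secreted and form gels, MUC2 being the main mucin of intestinal goblet cells and MUC5AC and MUC6 those of the gastric surface and glands. MUC1, MUC13 and MUC20 span the cell membrane and coat the apical surface. Trefoil factors are small secreted peptides, held by disulphide bonds, that are released with mucus and take part in repair of the mucosa.

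Promoter sequence was found for 3 of the 10 genes in the RefSeq promoter table of GRCh38.p14, and these are shown because 2 of them belong to genes that rose and the other to a gene listed at 0 in 3 of 4 libraries. Each is the 250 bases before the start of the gene, 5′ to 3′ on the gene's strand. Capitals mark matches, on either strand, to any of 5 letter strings: CAAAGTCCA and CAAAGGTCA, forms of the direct repeat that HNF4A binds, AGATAA, which GATA factors bind, CAGCTG, one form of the E-box, and TATAAA, the string that positions the start of transcription in many promoters.
MUC1, chr1:155192916-155193165, minus strand: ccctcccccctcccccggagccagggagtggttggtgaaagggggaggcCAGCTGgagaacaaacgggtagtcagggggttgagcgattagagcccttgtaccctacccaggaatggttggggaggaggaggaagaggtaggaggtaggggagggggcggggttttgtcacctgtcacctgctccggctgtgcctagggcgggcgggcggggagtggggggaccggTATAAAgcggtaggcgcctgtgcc
MUC13, chr3:124934752-124935001, minus strand: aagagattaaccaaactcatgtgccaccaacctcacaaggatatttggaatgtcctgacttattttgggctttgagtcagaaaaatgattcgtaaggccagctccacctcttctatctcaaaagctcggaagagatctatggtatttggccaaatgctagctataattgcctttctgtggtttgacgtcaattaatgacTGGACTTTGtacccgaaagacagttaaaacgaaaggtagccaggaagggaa
MUC2, chr11:1074624-1074873, plus strand: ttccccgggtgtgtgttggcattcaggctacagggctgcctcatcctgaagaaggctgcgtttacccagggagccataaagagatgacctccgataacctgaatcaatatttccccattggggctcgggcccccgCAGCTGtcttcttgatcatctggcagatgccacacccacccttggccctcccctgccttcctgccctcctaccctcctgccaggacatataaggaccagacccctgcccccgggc
In MUC13 the match is to CAAAGTCCA, which reads TGGACTTTG on the gene's strand, from 51 to 43 bases before the start. Of 27305 promoters of this length, 0.293% held that string and 0.341% held CAAAGGTCA. The strings were chosen after the promoters were seen in part, so these shares do not measure how unexpected the match is. MUC1 held TATAAA, from 24 to 19 bases before the start, and an E-box, shared by 11.1% and 13.8% of promoters. MUC2 held an E-box. AGATAA, present in 9.37% of promoters, was in none of the 3. No motif overlapped another. G and C made up 66.0% of the MUC1 bases, 59.6% of the MUC2 bases and 41.6% of the MUC13 bases, against a median of 58.0%. A match is a string of letters, not a measured site, and binding at these promoters was not analysed here, since gene positions of hg19, the build named for the peak lists, were not used.

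The targeted gene was measured first. HNF4A had 4129 and 3937 normalized counts in the control libraries and 1140 and 932 in the siHNF4A libraries. The knockdown left 25.7% of the control mean, a log2 fold change of -1.97 ± 0.095 (standard error; limma, adjusted p = 1.59e-05). All fold changes here are on the scale of log2(normalized count + 1), which understates changes of low genes, and "called" means an adjusted p under 0.05. Tested were the 15577 genes that averaged 10 or more normalized counts, and 14.1% of them were called, 6.02% higher and 8.11% lower, while 49.0% had a log2 fold change above 0. Higher genes made up 42.6% of calls with the values as deposited and 52.9% after rescaling to equal library totals.

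**Figure D1:**
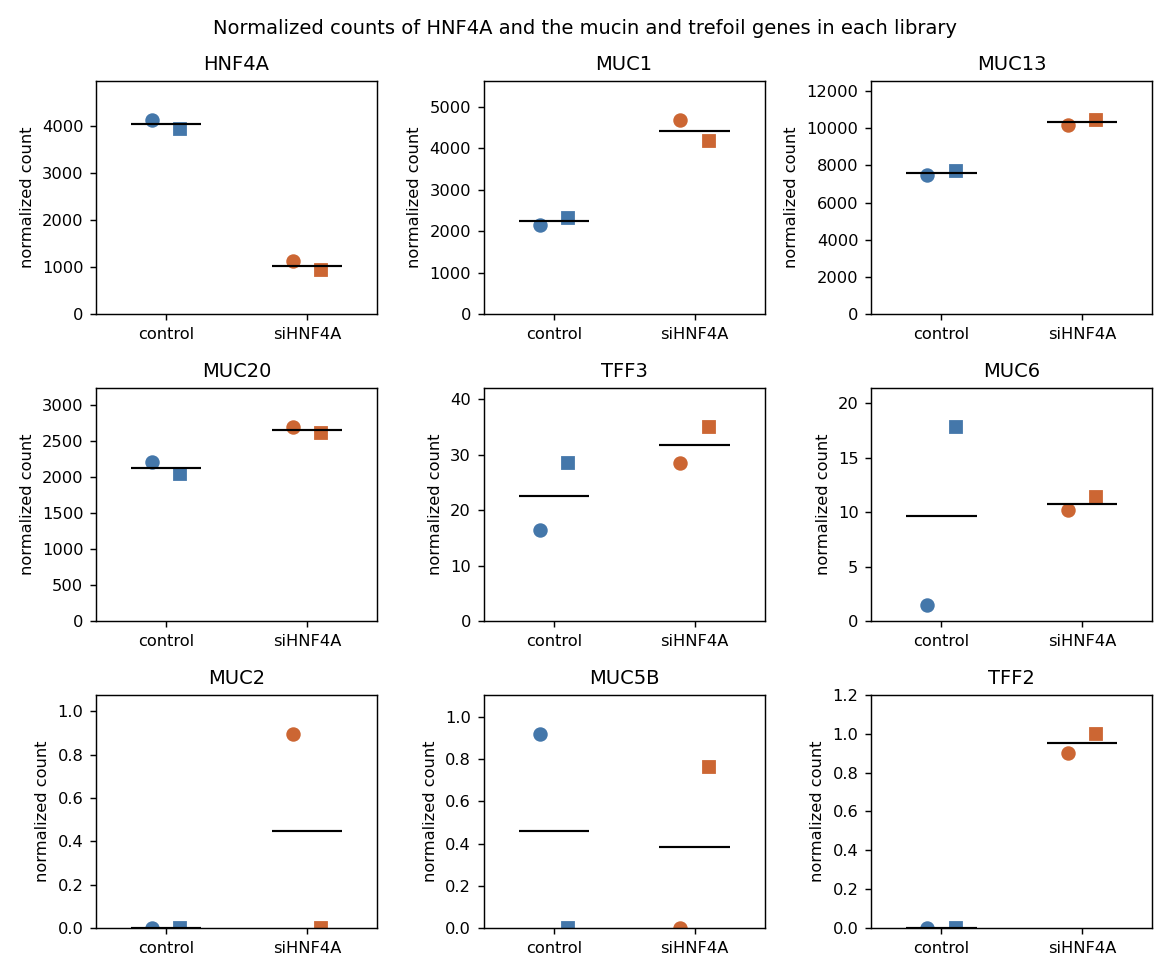
Normalized counts (vertical axes, each from 0 and each on its own scale) of HNF4A and the 8 measured genes in control and siHNF4A cells; circles are replicate 1, squares replicate 2 and lines the means of 2 libraries. MUC1, MUC13 and MUC20 lie higher in both siHNF4A libraries than in both controls, while MUC2, MUC5B and TFF2 do not exceed 1.001.

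The membrane mucins MUC1, MUC13 and MUC20 rose in the siHNF4A libraries, and MUC1 had the largest fold change of the 3. These were the called genes among the 5 of the list that could be tested, so 3 were higher and 0 lower, beside 6.02% and 8.11% of all tested genes. The secreted mucin MUC6 and the trefoil factor TFF3 were tested and not called, while MUC2, MUC5B and TFF2 were at 1.001 or below in every library. MUC6 passed the limit for testing, a mean of 10, only through its siHNF4A values, as its control mean was 9.68. The median log2 fold change of the 5 tested genes, MUC6 included, was 0.53, the value of TFF3, beside -0.0073 over all tested genes. Leaving out control 1 lowered this median to 0.38, and leaving out control 2 raised it to 0.91.

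MUC1, a signalling mucin of the apical membrane that is widely used as a tumour antigen, had 2145 and 2332 normalized counts in the control libraries and 4687 and 4169 in the siHNF4A libraries. The groups did not overlap, and every siHNF4A library stood between 1.79 and 2.19 times above every control library. Means were 2239 ± 132 and 4428 ± 366 (SD, n = 2 each), a ratio of 1.98. MUC1 changed by 0.98 ± 0.077 on the log2 scale (standard error), with a 95% interval from 0.81 to 1.15 (limma, adjusted p = 9.72e-05), which placed MUC1 at rank 371 from the largest rise among 15577 genes.

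MUC13, a membrane mucin of the intestinal brush border, had 7486 and 7702 normalized counts in control cells, against 10193 and 10443 after knockdown. Replicates of this gene lay close together, and any siHNF4A library exceeded any control by between 1.32 and 1.40 times. MUC13 changed by 0.44 ± 0.052 on the log2 scale (standard error), with a 95% interval from 0.33 to 0.56 (limma, adjusted p = 8.17e-04). MUC13, whose promoter held the HNF4-type string, was higher in the libraries with less HNF4A mRNA. Promoters of MUC20, TFF3 and MUC6 were not searched, and any part of the string in the change of MUC13 was not tested.

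MUC20, a membrane mucin first described in kidney, had 2211 and 2040 normalized counts in control cells and 2698 and 2608 in the siHNF4A libraries. The siHNF4A libraries were again above both controls, by between 1.18 and 1.32 times. MUC20 changed by 0.32 ± 0.071 on the log2 scale (standard error), with a 95% interval from 0.16 to 0.48 (limma, adjusted p = 0.0159). This call was the least firm of the 3, as it alone was lost when genes of any level were tested (limma, adjusted p = 0.0764). The log2 fold change of MUC20 was 0.26 without control replicate 2, 0.30 without siHNF4A replicate 1, 0.35 without siHNF4A replicate 2 and 0.38 without control replicate 1. RefSeq lists a pseudogene copy, MUC20P1, and how reads of the copies were divided is not stated.

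Non-overlap alone is common in these data, since 57.0% of all tested genes had both siHNF4A libraries on the same side of both controls and 26.9% had them above. Ratios of 2 genes within a library do not depend on a scaling factor of that library. The ratio of MUC1 to MUC13 was 0.287 and 0.303 in control cells, against 0.460 and 0.399 after knockdown, higher in each siHNF4A library than in either control. The ratio of MUC1 to MUC20 likewise went from 0.970 and 1.14 to 1.74 and 1.60. MUC20 relative to MUC13 lay at 0.295 and 0.265 in control cells and at 0.265 and 0.250 in the siHNF4A libraries, so control 2 and siHNF4A 1 were nearly equal, although both siHNF4A ratios were the lower ones. With 2 libraries against 2 an exact two-sided permutation test of such a ratio cannot give a p below 0.333, and no other test of the ratios was run.

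**Figure D2:**
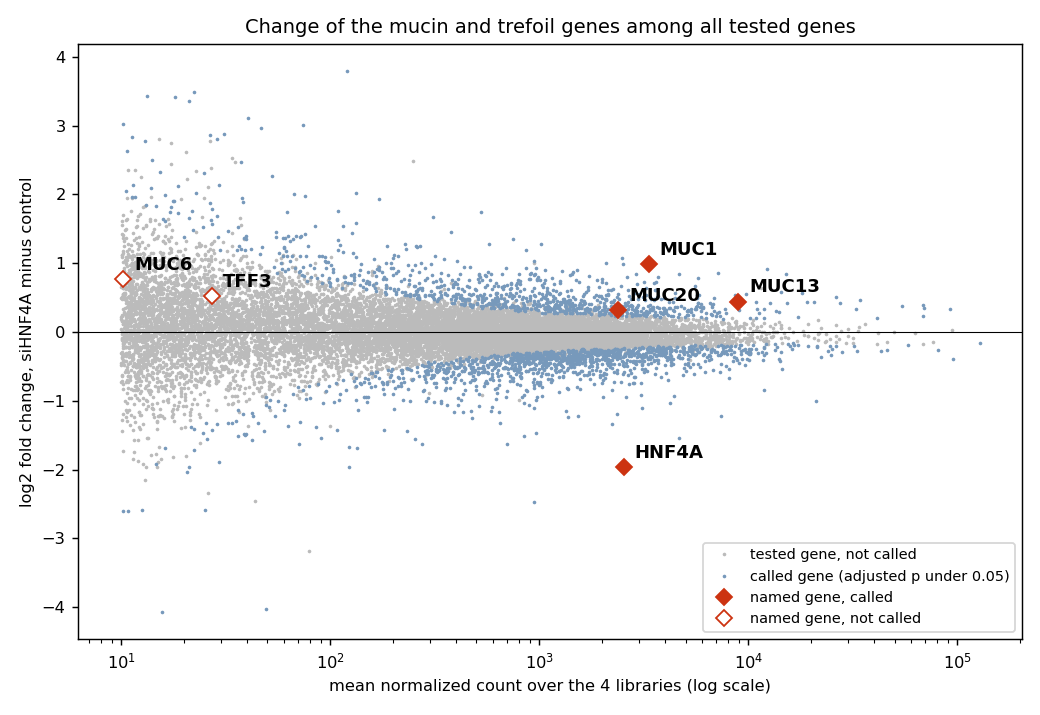
Log2 fold change, siHNF4A minus control (vertical axis), against the mean normalized count of 4 libraries (horizontal axis, log scale) for the 15577 tested genes, with called genes in blue and HNF4A and the tested mucin and trefoil genes as diamonds (filled, called; open, not called). MUC1, MUC13 and MUC20 lie above most, though not all, uncalled genes near their level, while TFF3 and MUC6 lie inside the wide band of low genes.

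TFF3, the trefoil factor of goblet cells, had 16.4 and 28.6 normalized counts in control cells and 28.5 and 35.0 in the siHNF4A libraries. The groups overlapped, control 2 and siHNF4A 1 being nearly equal. Its log2 fold change of 0.53 had a 95% interval from -0.33 to 1.38 (limma, adjusted p = 0.408), so neither a rise nor a fall was shown at this precision. Leaving out control 1 gave 0.14 for TFF3, and leaving out control 2 gave 0.91. MUC6, the mucin of gastric glands, had 1.51 and 17.9 normalized counts in control cells, against 10.2 and 11.4 after knockdown. Both siHNF4A values lay between those of the controls. The mean of MUC6 was 10.2, just above the limit for testing. Its control mean of 9.68 was under that limit, so MUC6 could be tested only through its siHNF4A mean of 10.8. The log2 fold change of MUC6, 0.78, had a 95% interval from -1.12 to 2.67 (limma, adjusted p = 0.597). Without control replicate 1 it turned to -0.68, and without control replicate 2 it was 2.23.

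The other measured genes were at or near 0. MUC2 was listed at 0 in 3 libraries and at 0.897 in siHNF4A 1. MUC5B, a mucin of airways and salivary glands, was listed at 0 in control 2 and siHNF4A 1 and at 0.921 and 0.763 in the others. TFF2, the trefoil factor of gastric gland mucous cells, was listed at 0 in both controls and at 0.901 and 1.001 in the siHNF4A libraries. Genes seen in a lone library most often had there a value of 2.44 (control 1), 2.23 (control 2), 1.79 (siHNF4A 1) or 2.02 (siHNF4A 2), so each of these entries lies below that commonest lone signal. If that value stands for equal numbers of reads, siHNF4A 1 and 2 were sequenced 1.37 and 1.21 times as deeply as control 1, and control 2 1.10 times. The part of depth in the difference of TFF2 was not tested, and no change of MUC2, MUC5B or TFF2 was detectable.

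Genes of the same biology were then compared, in lists that do not include the 10 genes. Other mucins showed 1 call. Of 15 symbols 11 were measured and 5 tested, and 1 was higher and 0 lower, beside 6.02% and 8.11% of all tested genes, with a median log2 fold change of 0.49. That median covers only the genes above the limit for testing, and over all 11 measured it was -0.094. CD164, a sialomucin of cell surfaces and endosomes, had 7711 and 7143 normalized counts in control cells and 9708 and 11262 in the siHNF4A libraries, a log2 fold change of 0.49 (limma, adjusted p = 0.00269). The membrane mucins MUC4, MUC12 and MUC3A were not called, with log2 fold changes of 0.63, 0.58 and -0.20 (limma, adjusted p = 0.134, 0.119 and 0.130). MUC17, a further brush border mucin, was too low to test, at 9.18 and 16.7 in control cells, against 4.19 and 1.18 after knockdown. Its control mean of 12.9 was above the limit, so MUC17 failed it only through the lower siHNF4A values, and the count of 0 lower does not cover it.

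Genes of goblet cells and of mucus packaging gave 7 calls, all of them higher. Of 26 symbols 25 were measured and 17 tested, and 7 were higher and 0 lower, which is to be read against the 6.02% of all tested genes called higher. Their median log2 fold change was 0.54, against 0.42 over all 25 measured and 0.38 over the 12 that averaged 50 or more. ATOH1, the transcription factor that commits intestinal cells to secretory fates, had 7.33 and 7.76 normalized counts in control cells and 63.2 and 84.1 in the siHNF4A libraries. That is a log2 fold change of 3.11 ± 0.36 (standard error; limma, adjusted p = 7.00e-04), rank 6 of 15577. Its control level was under the limit for testing, so ATOH1 could pass that limit only by being higher in the siHNF4A libraries. The same held for REP15, which was not called, at 8.53 and 6.63 in control cells and 14.4 and 12.1 after knockdown.

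AGR2 and AGR3, disulphide isomerases of which AGR2 is needed to fold intestinal mucin, both rose. AGR2 had 1580 and 1819 normalized counts in control cells, against 2522 and 2636 after knockdown, a log2 fold change of 0.60 (limma, adjusted p = 0.00165). AGR3 had 62.8 and 74.2 in control cells and 202 and 171 in the siHNF4A libraries, a log2 fold change of 1.43 (limma, adjusted p = 0.00176). CREB3L1, a membrane-bound transcription factor of the secretory pathway, rose by 1.28 on the log2 scale, from 144 and 122 to 333 and 315 normalized counts (limma, adjusted p = 8.52e-04). SLC12A2, the basolateral sodium, potassium and chloride cotransporter of secreting epithelia, rose by 0.54 (limma, adjusted p = 0.00187). DMBT1, a secreted mucosal glycoprotein, rose by 0.69, from 278 and 251 to 533 and 340, and was not called without siHNF4A replicate 1 (0.36, adjusted p = 0.261 in limma). The seventh call, KLF4, a goblet cell transcription factor named here after its values were seen, rose by 0.33 and was not called without control 1 (0.20, adjusted p = 0.162 in limma), siHNF4A 1 or siHNF4A 2 (adjusted p = 0.101 and 0.179). SPDEF, which drives goblet cell maturation, was not called, with 77.8 and 81.5 normalized counts in control cells, against 90.8 and 78.6 after knockdown and a 95% interval of its log2 fold change from -0.39 to 0.56.

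**Figure D3:**
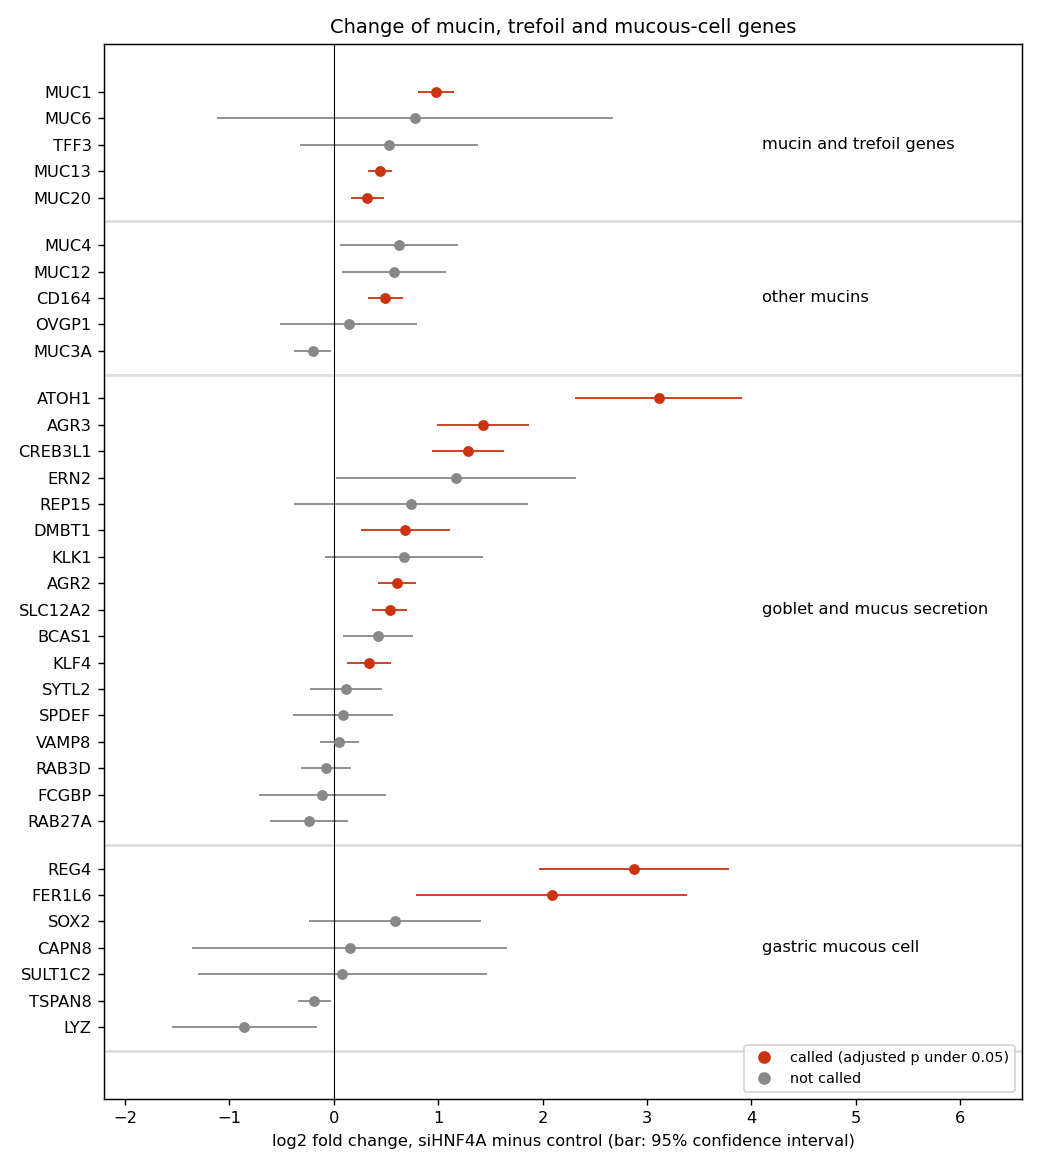
Log2 fold change, siHNF4A minus control, with its 95% confidence interval (horizontal axis) for each tested gene of 4 lists; red points were called and grey points were not. MUC1 leads its list at 0.98, and ATOH1 at 3.11 and REG4 at 2.88 stand farthest to the right.

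Genes of gastric mucous cells gave few values. Of 19 symbols 16 were measured and 7 tested, and 2 were higher and 0 lower, beside 6.02% and 8.11% of all tested genes, with a median log2 fold change of 0.15. Leaving out siHNF4A 1 turned this median to -0.18, and leaving out siHNF4A 2 raised it to 0.99. It was -0.028 after quantile normalization, -0.52 over the 2 genes that averaged 50 or more and 0.39 over all 16 measured. REG4, a secreted lectin of enteroendocrine and metaplastic mucous cells, had 5.06 and 8.62 normalized counts in control cells and 51.4 and 59.3 in the siHNF4A libraries, a log2 fold change of 2.88 (limma, adjusted p = 0.00192). FER1L6 went from 2.44 and 7.79 to 26.0 and 19.2, a log2 fold change of 2.09 (limma, adjusted p = 0.0405). It was not called without control 1, siHNF4A 1 or siHNF4A 2 (adjusted p = 0.0774, 0.231 and 0.134 in limma). Both genes could be tested only through their siHNF4A values. TSPAN8, a tetraspanin, and LYZ, lysozyme, averaged more normalized counts than REG4 and FER1L6 and were named after their values were seen. They missed the adjusted threshold at log2 changes of -0.19 and -0.86 (limma, adjusted p = 0.111 and 0.0994, unadjusted 0.0241 and 0.0207). TSPAN8 had 2344 and 2513 normalized counts in control cells, against 2133 and 2136 after knockdown, and made up most of the list's sum, which was 2477 and 2650 in control cells and 2357 and 2309 in the siHNF4A libraries. CLDN18, a tight junction protein of gastric epithelium, lay between 0 and 2.24 in all libraries, and GKN1 and GKN2 were not analysed here. Low genes such as ATOH1, REG4 and FER1L6 were higher in the libraries of greater relative depth, and the part of depth in their changes was not tested.

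The enzymes that build mucin O-glycans were called about as often as all tested genes. Of 37 symbols 35 were measured and 29 tested, and 3 were higher and 1 lower, beside 14.1% of all tested genes called, with a median log2 fold change of 0.059. Leaving out control 1 turned it to -0.020. The sialyltransferases ST6GALNAC1, which makes the sialyl-Tn antigen, and ST6GALNAC2 rose by 1.39 and 1.24 on the log2 scale (limma, adjusted p = 0.0228 and 0.0409). ST6GALNAC1 had 18.1 and 24.4 normalized counts in control cells, against 69.3 and 46.7 after knockdown. GALNT10, which starts O-glycans, rose by 0.40 and the fucosyltransferase FUT4 fell by 0.29 (limma, adjusted p = 0.0215 and 0.0269). Each of these 4 calls was lost with some library left out: ST6GALNAC1 without siHNF4A 1 or 2 (adjusted p = 0.192 and 0.0521 in limma), ST6GALNAC2 without control 1 (a log2 change of 0.72) or siHNF4A 1 or 2 (0.108, 0.100 and 0.203), GALNT10 without siHNF4A 2 (0.160) and FUT4 without control 2 or siHNF4A 1 or 2 (0.0771, 0.147 and 0.0758). The enzyme C1GALT1 that extends the core of these glycans was not called, with a log2 fold change of 0.0001 and 1954, 2073, 2013 and 2012 normalized counts in the 4 libraries.

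The neighbours of the 10 genes on the chromosome, by RefSeq gene order, are as follows. Next to MUC1 on chromosome 1, THBS3, a matrix thrombospondin, had 119 and 94.4 normalized counts in control cells and 192 and 167 in the siHNF4A libraries, a log2 fold change of 0.75 (limma, adjusted p = 0.0287). It was not called without control 2, siHNF4A 1 or siHNF4A 2 (adjusted p = 0.0868, 0.170 and 0.0763 in limma) and overlaps THBS3-AS1 and MTX1. TRIM46, on the other side of MUC1, was too low to test. Next to MUC13 on chromosome 3, the integrin subunit gene ITGB5 fell by 1.15 on the log2 scale, from 670 and 626 to 260 and 328 (limma, adjusted p = 7.47e-04), while HEG1 on the other side was not called (limma, adjusted p = 0.295). MUC13 rose between a gene that fell and a gene that was not called. MUC20 lies between APOD and MUC4 on chromosome 3, neither of which was called. MUC6, MUC2, MUC5AC and MUC5B lie together on chromosome 11, and TFF3, TFF2 and TFF1 on chromosome 21. The tested genes that flank these groups, AP2A2, TOLLIP and TMPRSS3, were not called, at log2 fold changes of 0.024, -0.31 and 0.20 (limma, adjusted p = 0.901, 0.113 and 0.735).

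Genes with the most similar profile over the 4 libraries were looked up for each called mucin. The Pearson correlation with MUC1 on the log2 scale was highest for MAPRE1 (0.999966), ZBTB4 (0.999958) and CTD-2517O10.6 (0.999956). For MUC13 it was highest for TCTA (0.999984), ARHGEF38 (0.999983) and SYT16 (0.999837), and for MUC20 for KIAA2026 (0.999983), GNAI2 (0.999968) and ZNF17 (0.999961). As there are only 4 points in 2 groups, 322, 335 and 193 of 15576 genes exceeded 0.99 for MUC1, MUC13 and MUC20, and these correlations are descriptions.

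The columnar epithelial identity of the line was checked by its markers, and all 12 of that list were tested. Of these, 2 were higher, among them KRT19, and 5 were lower, among them KRT8, KRT18 and EPCAM, with log2 fold changes of -0.43, -0.51 and -0.29 for the latter, beside 6.02% and 8.11% of all tested genes. Of 12 squamous markers, 9 were measured and 3 tested. KRT14, called higher, was at 0.637 and 2.29 in control cells and 12.2 and 25.7 after knockdown, KRT6A was listed at 0 throughout, and the summed level of the list was 1220 and 1246 in control cells, against 1430 and 1371 after knockdown, most of it from TRIM29. KRT5 was not called and went the other way, from 32.6 and 12.1 to 6.14 and 10.5, a log2 fold change of -1.21 (limma, adjusted p = 0.190). KRT13 was at 1.05 and 0.640 in control cells and listed at 0 after knockdown. Of 14 fibroblast, endothelial and immune markers, 9 were measured and 7 tested. The sum of that list was 296 and 218 in control cells and 346 and 364 in the siHNF4A libraries, VWF was called higher, and the leukocyte gene PTPRC lay between 0 and 2.05. VWF had 8.55 and 6.68 in control cells and 47.5 and 36.4 after knockdown, so it and KRT14 could be tested only through their siHNF4A values. Whether cells of other types had a part in the changes was not tested.

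**Figure D4:**
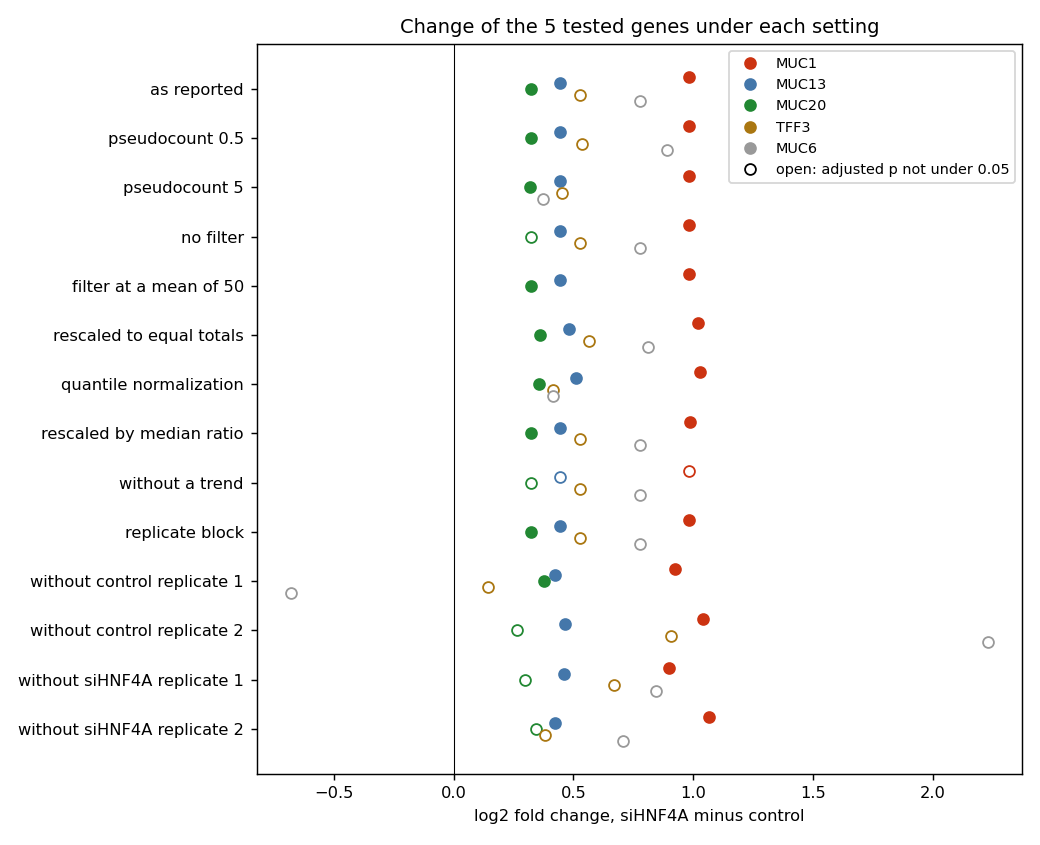
Log2 fold change, siHNF4A minus control (horizontal axis), of the 5 tested mucin and trefoil genes under each setting of the test (vertical axis); filled points have an adjusted p under 0.05. MUC1 stays between 0.90 and 1.07 and MUC13 between 0.42 and 0.51, whereas MUC6 ranges from -0.68 to 2.23.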

How the data were processed

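Total RNA was column-purified and made into Illumina libraries, per the labels' protocols. The authors deposited 1 table of normalized counts per gene symbol, a signal value that is fractional and at least 0. How these were counted and normalized, whether strand was used, and the annotation are not given in the sources used here. The submitters' processing notes name hg19, Bowtie2, Trim Galore, Picard and MACS2 without roles. Normalized counts summed to between 17912507 and 18613685 per library. The absolute depth is unknown, so no counting interval is given.

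Groups came from the titles. Genes with a mean of at least 10 over 4 libraries were tested on log2(normalized count + 1) with limma 3.58.1 in R 4.3.3 (lmFit, eBayes with an intensity trend, Benjamini-Hochberg over 15577 genes). The procedure was also run on simulated data whose spread followed the trend exactly, so that run cannot test the trend. Deviations of same-numbered libraries from their group means were uncorrelated (Pearson r = -0.0192 over 15577 genes), and no block was used in the main fit. This correlation cannot exclude a batch shared by same-numbered libraries. Other pseudocounts, filters, scalings, a fit without the trend, a block and leaving out each library were tried. Leaving out 1 library leaves 1 in its group, so the spread between replicates then comes from the other group alone. The 10 genes and all lists were chosen with earlier results of these data known. Named were the 10 genes, HNF4A, up to 6 called genes of each list by adjusted p, SPDEF, ATOH1, AGR2, GKN1, GKN2, CLDN18, neighbours and the 3 genes most correlated with each called member. Other names were chosen after values were seen. No transcript lengths were used, so sums over a list and differences in counts between genes are of normalized counts, not of transcript levels. The ChIP-seq peak lists and the 4C libraries were not used here. Promoter strings were chosen after the promoters of the table were seen in part.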

Additional observations from a re-analysis of the deposited data

How the results depend on the processing

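The log2 fold change of HNF4A remained past the threshold at -1.97 to -1.92 with all 4 libraries, except without the variance trend (-1.97, adjusted p = 0.0919 in limma), and lay between -2.11 and -1.82 when 1 library was left out. Without the trend, limma called 0 of the 10 genes, 0 other mucins, 0 O-glycosylation, 0 goblet and 0 gastric genes, and 0 genes over the table, with 3, 3, 7, 7, 2 and 3524 at an unadjusted p under 0.05. The cause was not tested. MUC1, MUC13 and MUC20 were called in every other fit with all 4 libraries, except MUC20 without the filter, and 2 or 3 of them were called when 1 library was left out. Counting only calls with a fold change of 1 or more on the log2 scale, up or down, left 0 of them, 0 other mucins, 2 O-glycosylation genes, 3 goblet genes and 225 genes over the table, 60% of them higher. MUC1, at 0.98, was just under that limit. It stood at 1.02 after rescaling to equal totals and at 1.03 after quantile normalization.

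Testing genes of any level gave 726 calls over 30247 genes, 0 O-glycosylation genes (14 at an unadjusted p under 0.05 in limma) and 1 gastric gene. A limit of 50 left 0 gastric genes of 2 tested (2 at an unadjusted p under 0.05 in limma), and quantile normalization left 1. The number of calls lay between 1013, without siHNF4A replicate 2, and 2449, without control replicate 1, when 1 library was left out, with 1101 without siHNF4A replicate 1. For O-glycosylation genes it lay between 1 and 5, for goblet genes between 5 and 8 and for gastric genes between 1 and 2. The median of the O-glycosylation list lay between -0.020 and 0.080 in these fits, and that of the gastric list between -0.18 and 0.99. With 1 library left out, MUC6 lay between -0.68, without control replicate 1, and 2.23. SPDEF turned to -0.0005 after quantile normalization and to -0.018 without siHNF4A replicate 1, reaching 0.19 without siHNF4A replicate 2, and neither gene was called in any fit. The replicate number as a block changed no call among the 10 genes (3 called) or HNF4A and gave 2428 calls over the table. For the 17 context genes named by rule, as neighbours or, for KLF4, after its values were seen, 122 of 149 values with all 4 libraries kept direction and side of the threshold, 26 were weaker (16 of them without the trend, 8 without the filter) and 1 reversed. Unknown depth limits what can be said of genes near 0.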

Other observations

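The promoter string found in MUC13 was looked up in other genes, a choice made after its values were seen. Of 80 symbols with CAAAGTCCA in the 250 bases before their start, 26 were tested, and 2 were called higher (MUC13 among them) and 1 lower, which is 11.5% called beside 14.1% of all tested genes. The median log2 fold change of these genes was -0.030. Of 93 symbols with the form CAAAGGTCA, 26 were also tested, and 1 was called higher and 7 lower, 30.8% in all, with a median of -0.24. AGMAT, a mitochondrial ureohydrolase, and DDC, the decarboxylase that makes dopamine and serotonin, were among those called. These are counts with no test, and the difference between both forms was not tested.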
